A study of Mus musculus with 13 samples.

Results

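The internal regions of endogenous retroviruses outside the best known mouse families were followed in mouse embryonic stem (ES) cells. They are rows of a table of RepeatMasker subfamilies that carry the class LTR and a name ending in -int. Names that start with IAP, MMETn, ETnERV, MERVL-, RLTR1B, RLTR4_, RLTR6- or MuLV were left out, and at least 100 counts summed over the 4 libraries of the table were required. Of 148 internal rows 130 matched the names, and 72 of these reached the minimum. These 72 members belong to the 645 transposon subfamilies with at least 100 counts. The members were thus selected on their summed counts, and 58 rows fell below the minimum, 12 of them with no count in any library. Just inside it stood MLT1F-int with 100 counts, MLT1A0-int with 108 and MURVY-int with 113, and just outside it MER31-int with 97, ERV3-16A3_I-int with 94 and ERVL-int with 91. Every member had at least 10 counts in each library, but 4 of them, ERVB4_1-I_MM-int, MLT1A0-int, MLT1F-int and MURVY-int, reached the minimum only with their highest library. That library was Dnmt1-/- for MURVY-int and dCas9-OGA for the other 3, so a higher value there was partly a condition of membership. Among the calls below, this holds for ERVB4_1-I_MM-int in dCas9-OGA against dCas9-OGA D242A and WT, for MLT1F-int in dCas9-OGA against WT and for MURVY-int in Dnmt1-/- against WT.

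An endogenous retrovirus is a retrovirus that entered the germline. A complete copy carries gag, pro, pol and sometimes env in an internal region between 2 long terminal repeats (LTRs), and the LTR holds the promoter. Recombination between the LTRs deletes the internal region of most copies, so reads on internal regions come from the less reduced copies. By the study's methods, reads on annotated messenger RNAs were removed before repeats were counted. In ES cells these elements are known to be held silent by DNA methylation and by zinc finger proteins that recruit TRIM28 and the histone methyltransferase SETDB1. By the usual division, 9 members are class I elements (ERV1, relatives of gammaretroviruses), 25 are class II (ERVK, relatives of betaretroviruses), 5 are class III elements of the ERVL type and 29 are class III elements of the MaLR type, which lack most coding sequence. The remaining 4, MurERV4-int, MurERV4_19-int, RodERV21-int and RMER6-int, were not placed in a class.

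The table holds 1 library each of 4 populations. Cells of the line AinV15, with a wild-type genotype, expressed either dCas9-OGA or dCas9-OGA D242A together with 4 sgRNAs against IAP elements. dCas9-OGA is a catalytically dead Cas9 fused to a bacterial O-GlcNAc hydrolase, which removes the sugar O-GlcNAc from proteins, and the D242A substitution inactivates the hydrolase. Both fusions were expressed from an inducible cassette exchanged into the same locus, and the sgRNAs were aimed at the LTR promoter of IAP elements, none of which is a member here. The other 2 libraries come from untreated cells, WT ES cells and Dnmt1-/- ES cells, which lack the maintenance DNA methyltransferase; neither is tied to any of the 3 WT (AinV15) and 3 Dnmt1-/- (D1-null strain, C allele) replicate libraries, whose files hold genes only. Because each condition of the repeat table is 1 library, no difference between repeats has a replicate check or a p-value, and the 95% intervals cover counting error only.

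Gene counts per library lay between 18693531 and 25097983 and counts on transposon subfamilies between 527260 and 1046483. Values are given as cpm, counts per 1000000 gene counts, scaled with TMM factors. In the library labelled Dnmt1-/- the Dnmt1 gene stood at 61.9 cpm, against between 376 and 549 cpm in the other 3. All 6 ES cell markers were present in every library, with a sum of between 3563 and 5165 cpm, while 6 fibroblast markers summed to between 29.9 and 60.6 cpm and 4 primitive endoderm markers to between 13.1 and 40.7 cpm. The WT library stood apart in the sum of 8 genes of 2-cell-like cells, 30.7 cpm there and between 0.403 and 1.41 cpm elsewhere. Usp17la alone had 15.2 cpm in WT, and 5 of the 8 had fewer than 100 counts over the libraries, with none for Gm4340. Y-linked genes separated the libraries differently: Ddx3y, Eif2s3y, Kdm5d and Uty together had 127 cpm in dCas9-OGA D242A and 141 cpm in Dnmt1-/-, but 3.26 cpm in dCas9-OGA and 7.50 cpm in WT. Trophoblast markers, 4 genes, summed to between 31.9 and 91.3 cpm, mostly Tfap2c, which was highest in dCas9-OGA D242A (88.4 cpm). Cdx2 had 6.41 cpm in WT and between 0.121 and 0.282 cpm elsewhere. Eomes had 14.4 cpm in WT and between 2.57 and 8.47 cpm elsewhere, and Elf5 had at most 6 counts in any library. Each of the 4 primitive endoderm markers was highest in WT. The part of these differences in the ratios below was not tested.

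One member has a copy that RefSeq annotates by name on GRCm38.p6, and it is shown as an example of what such a row counts. MuRRS4-int, a class I element named after murine retrovirus-related sequences, lies at chr17:34825787-34826160, a partial internal region of 374 bases. It starts a few bases after the LTR named LTRIS4 (chr17:34825295-34825783, 489 bases). Both lie within Stk19, which is annotated on the minus strand, and overlap none of its exons, so this copy is intronic. The annotated strand of the copy itself was not read. The last 300 bases of the LTR and the first 300 of the internal region are printed on the plus strand, without the few bases between them. CG dinucleotides, the sites of DNA methylation, are in capitals.
LTRIS4, chr17:34825484-34825783: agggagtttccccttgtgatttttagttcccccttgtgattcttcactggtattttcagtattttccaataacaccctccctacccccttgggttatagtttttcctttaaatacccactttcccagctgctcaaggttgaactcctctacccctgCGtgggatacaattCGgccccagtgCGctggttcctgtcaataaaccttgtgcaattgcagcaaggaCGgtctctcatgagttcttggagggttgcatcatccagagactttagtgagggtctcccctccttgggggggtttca
MuRRS4-int, chr17:34825787-34826086: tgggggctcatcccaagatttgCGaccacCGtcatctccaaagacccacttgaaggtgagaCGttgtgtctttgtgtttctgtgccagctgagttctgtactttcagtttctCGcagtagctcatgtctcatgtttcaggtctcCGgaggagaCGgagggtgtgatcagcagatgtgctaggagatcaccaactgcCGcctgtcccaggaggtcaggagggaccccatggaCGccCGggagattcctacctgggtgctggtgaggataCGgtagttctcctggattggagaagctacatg
The internal stretch holds 10 CG dinucleotides and the LTR stretch 4. The table gives no positions, so the share of MuRRS4-int reads from this copy is unknown, and DNA methylation of it was not analysed here.

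The 72 members together had 49300 counts in dCas9-OGA, 35134 in dCas9-OGA D242A, 33365 in WT and 32888 in Dnmt1-/-. On gene counts this was 1986 cpm, 1414 cpm, 1346 cpm and 1730.0 cpm in the same order. As a share of all transposon counts the order was different: the members took 4.71% in dCas9-OGA (Wilson 95% interval from 4.67% to 4.75%), 5.08% in dCas9-OGA D242A, 5.38% in WT and 6.24% in Dnmt1-/- (6.17% to 6.30%). The members thus were highest in dCas9-OGA per gene count and lowest there per transposon count. Internal rows outside the members, those left out by name or under the minimum, had 353837 counts in dCas9-OGA, 115445 in dCas9-OGA D242A, 140716 in WT and 79614 in Dnmt1-/-, so the transposon total itself was raised in dCas9-OGA. MMETn-int, ETnERV-int and IAPEz-int had log2 ratios of 1.63, 1.56 and 1.97 between the fusions. In bulk RNA, fewer cells that transcribe an element and less RNA per cell cannot be told apart. Counts were concentrated: the 10 members with the most held 58.7% of the 150687 member counts, and member totals ran from 100 to 24666 with a median of 825. dCas9-OGA was the highest library for 44 members (61.1%) and for 72.7% of all 645 subfamilies, and WT was the lowest for 42 members (58.3%) and for 66.7% of all. The rRNA row, which is no transposon, took 32.2% of the repeat table in dCas9-OGA, 48.2% in dCas9-OGA D242A, 40.6% in WT and 48.1% in Dnmt1-/-. That share falls by construction where transposon counts are high. In counts the row held 552164 in dCas9-OGA, 740992 in dCas9-OGA D242A, 478521 in WT and 574465 in Dnmt1-/-. Its part in the ratios was not tested.

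Which internal regions responded to an active hydrolase at IAP promoters was asked by comparing dCas9-OGA with dCas9-OGA D242A. Of the 72 members, 8 stood 2-fold or more above dCas9-OGA D242A on the log2(cpm + 0.5) scale and 1 stood as far below it. That is 11.1% and 1.39%, where 4.50% and 0.310% of all subfamilies passed the same limits. The median log2 ratio was 0.38 over the members and 0.31 over all subfamilies, and it turned to −0.17 for the members when libraries were scaled on their transposon counts. Relative to the median subfamily, 4 members (5.56%) were 2-fold higher and 1 (1.39%) lower, against 2.95% and 0.930% of all subfamilies. The 8 higher members were 5 class II elements, 2 class I elements and 1 MaLR element.

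**Figure D1:**
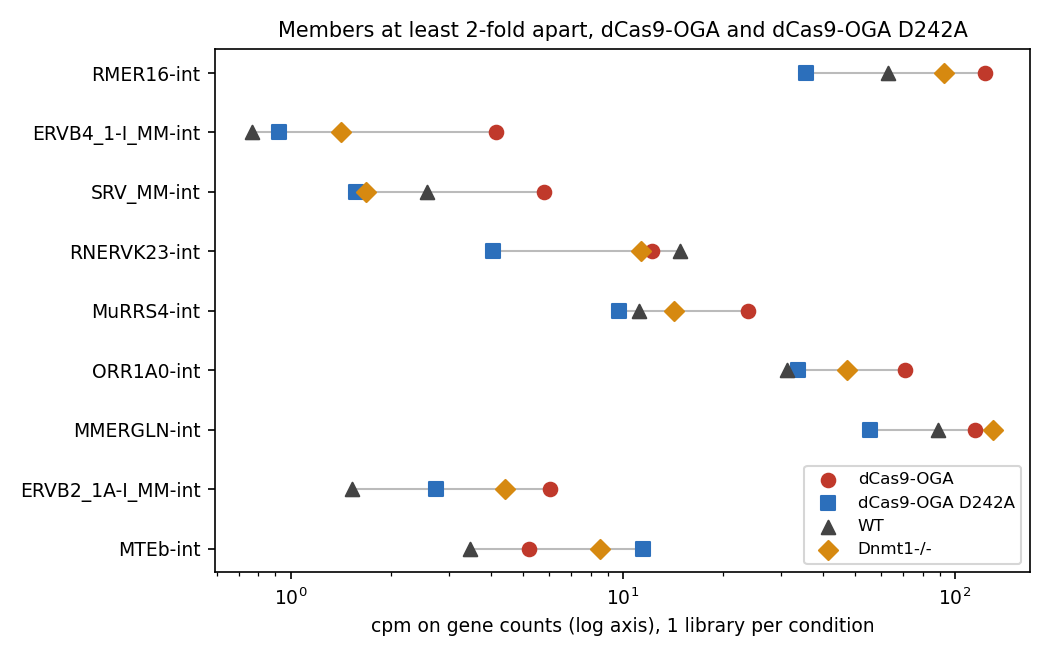
Members at least 2-fold apart between dCas9-OGA and dCas9-OGA D242A: each row is 1 member, and each point is its cpm in 1 library on a log axis, with no replicates. RMER16-int ran from 35.7 cpm in dCas9-OGA D242A to 123 cpm in dCas9-OGA, while RNERVK23-int was highest in WT and MTEb-int in dCas9-OGA D242A.

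RMER16-int, a class II internal region, had the largest log2 ratio of (cpm + 0.5), while 2 rarer members described next had larger folds without the pseudocount. Its level was 123 cpm in dCas9-OGA, 35.7 cpm in dCas9-OGA D242A, 63.0 cpm in WT and 92.8 cpm in Dnmt1-/-. The first comparison was 3.44-fold (from 3.19 to 3.71), a log2 ratio of 1.77, and it stayed at 1.17 or above under every other scaling and pseudocount tried. dCas9-OGA D242A was the lowest of the 4 libraries here, and the log2 ratio of dCas9-OGA to WT was 0.96.

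ERVB4_1-I_MM-int and SRV_MM-int, both class II and named as betaretrovirus-like, were rare. ERVB4_1-I_MM-int was counted 103 times in dCas9-OGA, 23 in dCas9-OGA D242A, 19 in WT and 27 in Dnmt1-/-. The fold between the first libraries was 4.48 (from 2.83 to 7.39) and the log2 ratio 1.71, and with a pseudocount of 5 cpm the log2 ratio was 0.63. Without dCas9-OGA this element would not have reached the count minimum. SRV_MM-int was counted 144, 39, 64 and 32 times in the same order, 3.70-fold (from 2.58 to 5.41). For both, dCas9-OGA stood above all 3 other libraries.

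RNERVK23-int showed another order. Its counts were 303 in dCas9-OGA, 101 in dCas9-OGA D242A, 368 in WT and 216 in Dnmt1-/-, and the fold between the fusions was 3.00 (from 2.39 to 3.80). The dCas9-OGA D242A library was the low one, with a log2 ratio to WT of −1.75, and dCas9-OGA did not exceed WT (log2 ratio −0.27). ERVB2_1A-I_MM-int, the fifth class II member of the 8, was counted 150, 68, 38 and 84 times in dCas9-OGA, dCas9-OGA D242A, WT and Dnmt1-/-. Its log2 ratio of 1.02 lay at the limit, and the interval of the fold went from 1.65 to 2.99.

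Among class I elements, MuRRS4-int had 23.8 cpm in dCas9-OGA, 9.78 cpm in dCas9-OGA D242A, 11.2 cpm in WT and 14.3 cpm in Dnmt1-/-. It was 2.44-fold higher (from 2.09 to 2.84) than with the inactive hydrolase and 2.13-fold higher than in WT. The related MuRRS-int had 186, 92, 106 and 83 counts, a fold of 2.02 (from 1.57 to 2.63) without a pseudocount but a log2 ratio of 0.93 with it, so it was not called. MMERGLN-int, a gammaretrovirus-like element named for its glutamine primer, stood at 115 cpm, 55.6 cpm, 89.0 cpm and 130.0 cpm in the same order. Its fold was 2.07 (from 1.94 to 2.204), dCas9-OGA D242A was the lowest library, and Dnmt1-/- stood above dCas9-OGA.

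ORR1A0-int was the MaLR member of the 8. It had 70.9 cpm in dCas9-OGA, 33.6 cpm in dCas9-OGA D242A, 31.1 cpm in WT and 47.3 cpm in Dnmt1-/-, with a fold of 2.11 (from 1.94 to 2.29). MTEb-int, an older MaLR element, went the other way, with 130 counts in dCas9-OGA, 286 in dCas9-OGA D242A, 86 in WT and 162 in Dnmt1-/-. Its log2 ratio was −1.07, and the library that stood out was dCas9-OGA D242A, 3.32-fold above WT (from 2.60 to 4.27).

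The comparison with WT shares the dCas9-OGA library, so its values for the 8 members are set beside the first and are no separate evidence. The log2 ratios to WT were 1.88 for ERVB4_1-I_MM-int, 1.69 for ERVB2_1A-I_MM-int, 1.17 for ORR1A0-int, 1.06 for MuRRS4-int and 1.03 for SRV_MM-int. For RMER16-int, MMERGLN-int and RNERVK23-int they were 0.96, 0.37 and −0.27.

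**Figure D2:**
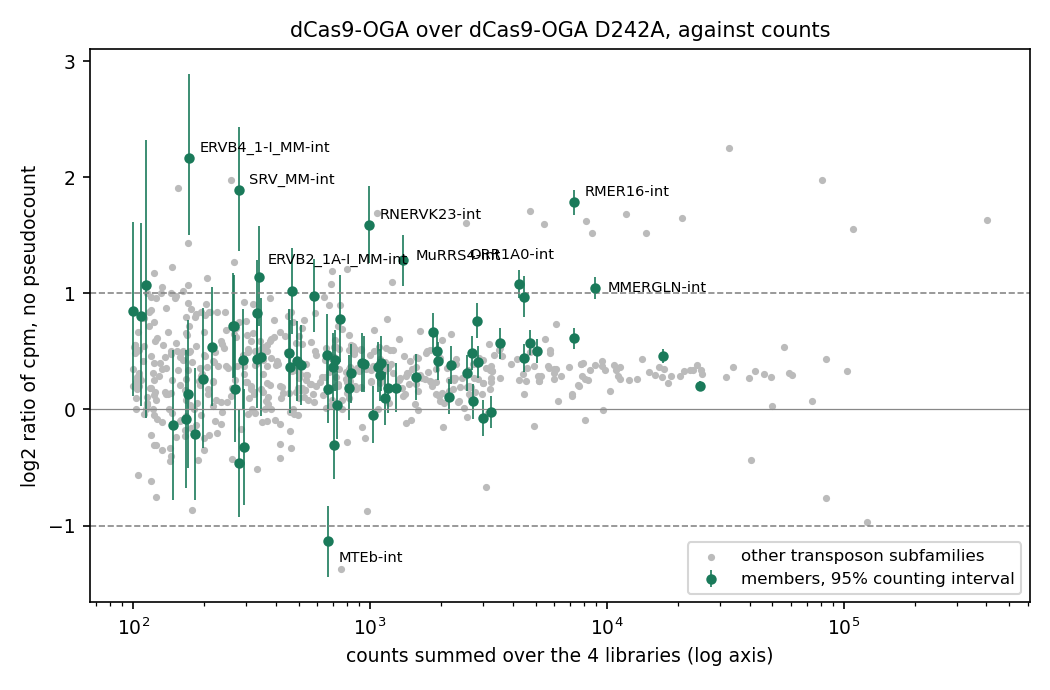
Log2 ratio of cpm in dCas9-OGA over dCas9-OGA D242A, without a pseudocount, against counts summed over the 4 libraries on a log axis; green points are the 72 members with 95% counting intervals, grey points the other transposon subfamilies, and dashed lines mark 2-fold. RMER16-int and MMERGLN-int pass on 7264 and 8912 counts, whereas ERVB4_1-I_MM-int passes on 172 counts with a wide interval.

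The 2 members with the most counts were not 2-fold apart between the fusions. RLTR19-int, a class II element, had 344 cpm in dCas9-OGA, 299 cpm in dCas9-OGA D242A, 160.0 cpm in WT and 249.8 cpm in Dnmt1-/-. Its log2 ratio was 0.20 between the fusions but 1.10 for dCas9-OGA over WT and 0.90 for dCas9-OGA D242A over WT, so both lines with a cassette stood above WT. MTA_Mm-int, a MaLR element known from oocyte transcripts, had 209 cpm, 152 cpm, 179 cpm and 199 cpm in the same order, and no pair of these libraries differed 2-fold.

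Of other abundant class III members, ORR1B1-int lay between 65.3 and 99.7 cpm over the libraries. ORR1A4-int lay between 32.2 cpm in WT and 71.1 cpm in dCas9-OGA, a log2 ratio of 1.13, and its log2 ratio between the fusions was 0.57. MERVL_2A-int, a relative of the 2-cell-stage retrovirus MERVL, had 69.9 cpm in dCas9-OGA, 49.4 cpm in dCas9-OGA D242A, 51.8 cpm in WT and 44.6 cpm in Dnmt1-/-. MERVL-int itself, which is no member, had 1277 cpm in WT and between 112 and 152 cpm in the other 3 libraries, and its LTR MT2_Mm 213 cpm in WT and between 30.9 and 37.7 cpm elsewhere. MERVL_2A-int thus did not share the excess of MERVL-int in the WT library.

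The smallest differences between the fusions among members with at least 1000 counts were those of MER34B-int, RodERV21-int and ORR1A3-int. MER34B-int, a class I element, had 853, 866, 867 and 642 counts in dCas9-OGA, dCas9-OGA D242A, WT and Dnmt1-/-, and the fold between the fusions was 0.986 (from 0.896 to 1.08). RodERV21-int had 276 and 285 counts and ORR1A3-int 732 and 698 counts in the 2 fusion libraries. Of the other class II and class I elements followed by name, MMERVK9E_I-int had a log2 ratio of 0.75, RLTR10-int of 0.31, MMVL30-int, the virus-like 30S RNA, of 0.27 and MMERVK9C_I-int of −0.07.

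By subgroup, the median log2 ratio of dCas9-OGA to dCas9-OGA D242A was 0.38 over 9 ERV1, 0.38 over 25 ERVK, 0.38 over 5 ERVL, 0.40 over 29 MaLR and 0.17 over the 4 unplaced members. The medians of the 4 placed subgroups lay close together. ERVK members ran from −0.40 to 1.77, ERV1 members from −0.02 to 1.24 and ERVL members from 0.17 to 0.91. Within the MaLR elements the median was 0.43 over 14 ORR1, 0.37 over 11 MT and 0.59 over 4 MLT members.

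**Figure D3:**
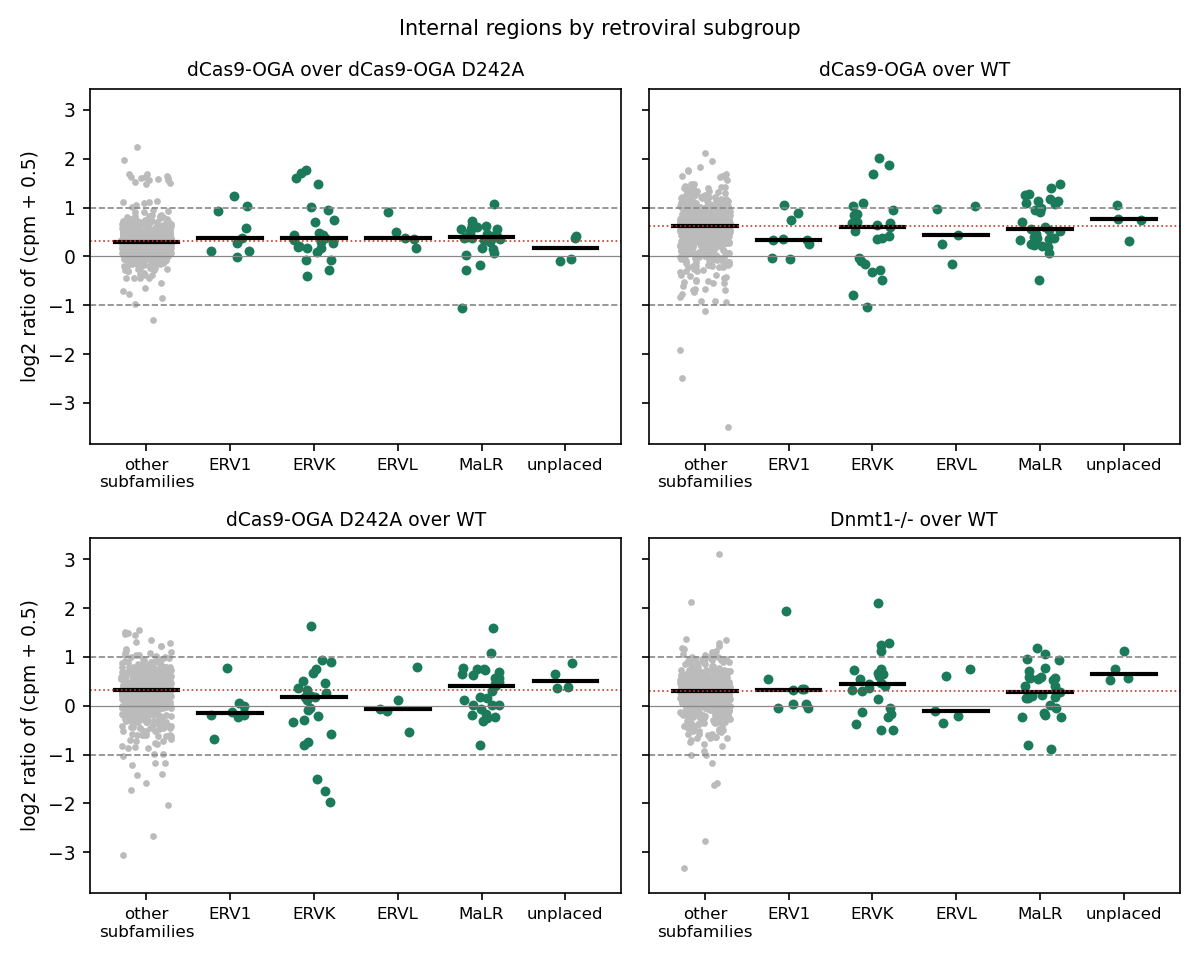
Log2 ratios of (cpm + 0.5) of the members by subgroup (green) beside all other transposon subfamilies (grey) in the 4 comparisons; black bars are medians, the red dotted line the median of all subfamilies and dashed lines 2-fold. The medians of the subgroups lie near that of the other subfamilies in the first panel, and 3 ERVK members lie below −1 for dCas9-OGA D242A over WT.

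Against WT, 17 members were 2-fold or more higher with dCas9-OGA and 1 was lower by that much, which is 23.6% and 1.39% where 15.3% and 0.775% of all subfamilies passed. The median log2 ratio was 0.55 over the members and 0.62 over all subfamilies, and it turned to −0.12 for the members on transposon counts. Relative to the median subfamily, 3 members (4.17%) were 2-fold higher and 4 (5.56%) lower, against 2.02% and 4.50% of all subfamilies. Of the 17, 9 were MaLR elements, 5 ERVK, 1 ERV1 and 1 ERVL. MurERV4-int, which was not placed in a class, was the remaining one.

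MMTV-int, the internal region of mouse mammary tumour virus, had the largest log2 ratio of (cpm + 0.5) in this comparison, 2.01. It was counted 106 times in dCas9-OGA, 79 in dCas9-OGA D242A, 17 in WT and 88 in Dnmt1-/-. WT was the low library, and dCas9-OGA stood 6.23-fold above it (from 3.71 to 11.1). The MaLR members with the largest log2 ratios were ORR1D-int, with 289, 216, 96 and 113 counts in the same order, and MTD-int, with 761, 481, 279 and 317.

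Their log2 ratios to WT were 1.47 and 1.41, and both also lay above 0 for dCas9-OGA D242A, at 1.07 and 0.76. MLT1F2-int, an old mammalian MaLR element, had 118, 72, 41 and 36 counts and a log2 ratio of 1.29. MLT1F-int, next to the count minimum, had 45, 25, 15 and 15 counts, and its fold over WT had an interval from 1.64 to 5.79. RLTR45-int, a class II element, was the member that was lower: it stood at 32.7 cpm in dCas9-OGA, 16.7 cpm in dCas9-OGA D242A, 67.3 cpm in WT and 83.4 cpm in Dnmt1-/-.

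Both fusion libraries of RLTR45-int lay below both untreated libraries. Between the fusions its log2 ratio was 0.95, just under the limit.

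dCas9-OGA D242A against WT, 2 libraries without an active hydrolase, gave 3 members that were higher by 2-fold or more and 3 that were lower. That is 4.17% each way, where 3.41% and 2.17% of all subfamilies passed. Relative to the median subfamily, 2 members (2.78%) were 2-fold higher and 6 (8.33%) lower, against 1.24% and 4.34% of all subfamilies. The higher members were MMTV-int, MTEb-int and ORR1D-int. The lower ones were the class II elements RLTR45-int (log2 ratio −1.98), RNERVK23-int (−1.75) and ERVB4_2-I_MM-int (−1.50).

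ERVB4_2-I_MM-int had 163 counts in dCas9-OGA, 95 in dCas9-OGA D242A, 290 in WT and 196 in Dnmt1-/-. The median log2 ratio was 0.16 over the members and 0.31 over all subfamilies. It was −0.24 for the members on DNA transposon counts. On gene counts 44 of the 72 members (61.1%) and 75.7% of all subfamilies had a log2 ratio above 0.

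The loss of Dnmt1 was examined in the 2 untreated libraries. In Dnmt1-/- cells 8 members exceeded WT by 2-fold or more and 0 fell below it as far, which is 11.1% where 3.26% of all subfamilies were higher and 1.09% lower. The median log2 ratio was 0.38 over the members and 0.30 over all subfamilies, and −0.015 for the members on DNA transposon counts. Relative to the median subfamily, 2 members (2.78%) were 2-fold higher and 2 (2.78%) lower, against 0.930% and 2.17% of all subfamilies. The 8 were 4 ERVK, 2 MaLR, 1 ERV1 and 1 unplaced member.

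MMERVK10C-int, a class II provirus family known as a target of TRIM28 in ES cells, was the only one of the 8 with at least 1000 counts over the libraries. Its level was 51.9 cpm in dCas9-OGA, 38.2 cpm in dCas9-OGA D242A, 32.0 cpm in WT and 76.6 cpm in Dnmt1-/-. The last was 2.40-fold above WT (from 2.198 to 2.62), and the log2 ratio of 1.25 fell to 0.84 on DNA transposon counts. Between the fusions the log2 ratio of MMERVK10C-int was 0.44.

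The highest log2 ratios belonged to rare elements. MMTV-int rose from 17 counts in WT to 88 in Dnmt1-/-, 6.75-fold (from 3.99 to 12.1), but its level in Dnmt1-/- (4.63 cpm) was near that in dCas9-OGA (4.27 cpm) and dCas9-OGA D242A (3.18 cpm). MURVY-int, a retrovirus repeated on the Y chromosome, was counted 21 times in dCas9-OGA, 10 in dCas9-OGA D242A, 14 in WT and 68 in Dnmt1-/-. Its fold over WT was 6.33 (from 3.53 to 12.2). It reached the count minimum only through Dnmt1-/-. The 4 Y-linked genes summed to 3.26 cpm in dCas9-OGA, 127 cpm in dCas9-OGA D242A, 7.50 cpm in WT and 141 cpm in Dnmt1-/-, and their part in the MURVY-int values was not tested.

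The other called members were ERVB2_1A-I_MM-int (84 against 38 counts), MTEb-int (162 against 86), RMER6-int (43 against 19), RLTR44-int (46 against 21) and MTEa-int, whose log2 ratio was 1.05. RMER6-int had 1.65 cpm in dCas9-OGA, 1.81 cpm in dCas9-OGA D242A, 0.77 cpm in WT and 2.26 cpm in Dnmt1-/-, and RLTR44-int had 1.97, 2.09, 0.85 and 2.42 cpm in the same order. As for MMTV-int and MMERVK10C-int, Dnmt1-/- was the highest and WT the lowest of the 4 libraries.

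The 2 perturbations, the active hydrolase against the inactive one and Dnmt1-/- against WT, share no library. ERVB2_1A-I_MM-int was 2-fold higher in both, the only one of the 72 members and of all 645 subfamilies, which include them. Across the 72 members Pearson's r of the log2 ratios was −0.15 and Spearman's rho −0.14, and across all 645 subfamilies −0.09 and −0.07. Subfamilies share reads and library depth, so this is a description. MTEb-int was 2-fold lower in the first comparison and 2-fold higher in the second.

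**Figure D4:**
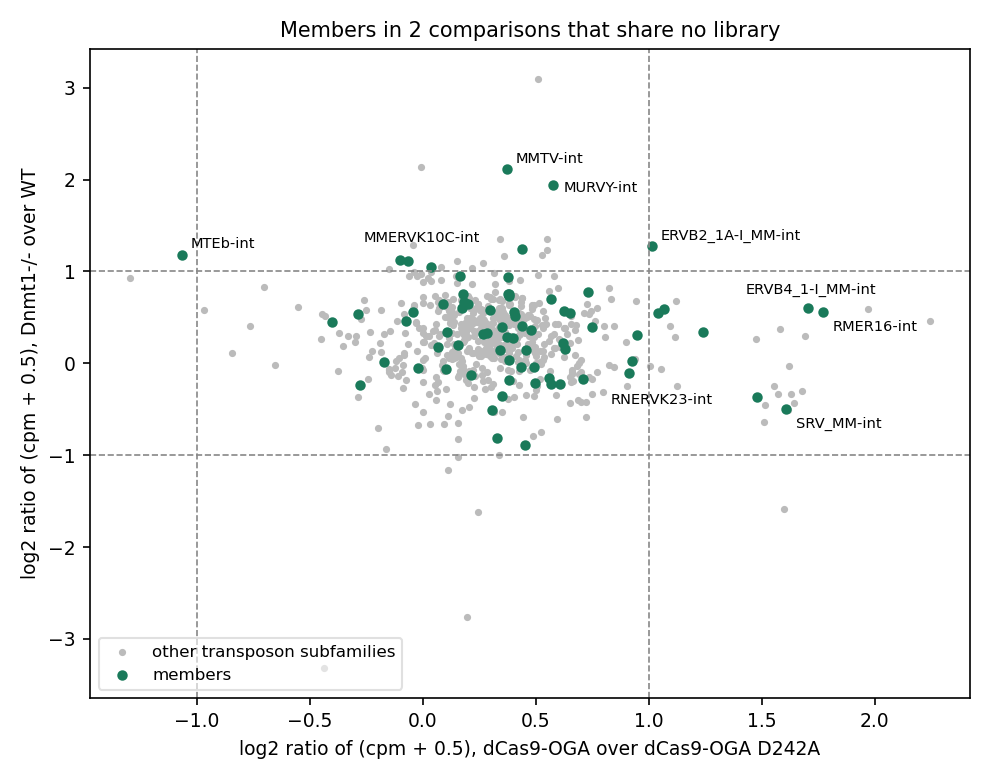
Log2 ratio of (cpm + 0.5) for dCas9-OGA over dCas9-OGA D242A (horizontal) and for Dnmt1-/- over WT (vertical); green points are the 72 members, grey points the other transposon subfamilies, and dashed lines mark 2-fold. The members with large values on one axis, RMER16-int and MMTV-int, lie below 2-fold on the other, and ERVB2_1A-I_MM-int lies above it on both.

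LTRs drive these elements and also stand alone in the genome, so each internal region was set beside the LTR rows of the same name. Such rows with at least 100 counts were found for 41 members. Between the fusions the median log2 ratio was 0.38 for these internal regions and 0.30 for their LTRs. Across the pairs Pearson's r was 0.20 and Spearman's rho 0.33, a description, since the rows share libraries and may share reads. Of the called members with a pair, RMER16-int and ORR1A0-int had LTR log2 ratios of 0.40 and 0.38 against 1.77 and 1.07 for the internal region, and MTEb-int had 0.32 against −1.07.

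No LTR of the 41 pairs was 2-fold higher or lower between the fusions, but only 2 of the 8 higher members had a pair. Matching by name left out the LTRIS rows, whose names differ from those of the MuRRS elements. LTRIS4, which lies next to MuRRS4-int in the copy printed above, was under the minimum. It was counted 21 times with the active and 15 times with the inactive hydrolase. LTRIS2 had 2130 and 704 counts and a log2 ratio of 1.58, with 1288 counts in WT and 1285 in Dnmt1-/-. Its log2 ratio to WT was 0.72 for dCas9-OGA and −0.86 for dCas9-OGA D242A. LTRIS4A had 189 and 163 counts in the 2 fusion libraries and a log2 ratio of 0.20 between them. Against WT the LTR of ORR1A0-int had a log2 ratio of −0.83 where the internal region had 1.17. In Dnmt1-/- against WT, MMERVK10C-int had a log2 ratio of 1.25 and its LTRs RLTR10C and RLTR10D together 0.15. The opposite was seen for MMERVK9E_I-int, at 0.40 for the internal region and 1.36 for its LTR RLTR9E. RLTR44-int was 2-fold higher in both parts (1.12 and 1.11).

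**Figure D5:**
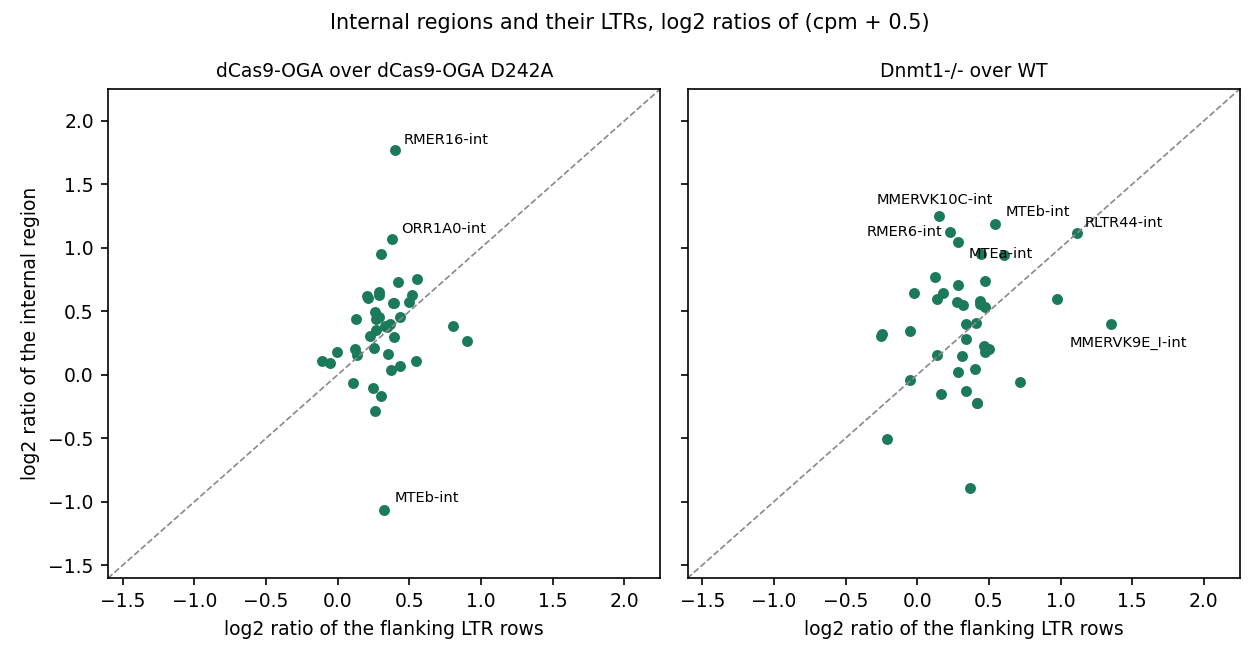
Log2 ratio of (cpm + 0.5) of 41 internal regions (vertical) against that of their summed LTR rows (horizontal), for dCas9-OGA over dCas9-OGA D242A (left) and Dnmt1-/- over WT (right); the dashed line marks equal ratios. RMER16-int and MTEb-int lie far from the line on the left, and MMERVK10C-int above it and MMERVK9E_I-int below it on the right.

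Factors that silence endogenous retroviruses were examined in the replicate libraries of WT and Dnmt1-/- cells. Nothing says that these replicates came from separate cultures, so their spread may be technical. The signal of Dnmt1 itself, in which WT libraries had 336 ± 24.1 (SD, n = 3), fell to 75.5 ± 2.02 (SD, n = 3) with the null allele, a log2 fold change of −2.14 (SE 0.05). Of 40 listed factors 38 were tested with limma, and 25 were higher and 6 lower in Dnmt1-/- at an adjusted p of 0.05. That is 65.8% and 15.8% of the list, where 35.8% of all 17297 genes tested were called higher and 35.4% lower. The median log2 fold change was 0.24 over the list and 0.0069 over all genes tested.

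The largest change after Dnmt1 was in the cofactor of de novo methylation, Dnmt3l, with 236, 252 and 253 in WT and 736, 762 and 766 in Dnmt1-/- libraries, a log2 fold change of 1.61 (SE 0.05, limma adjusted p = 8.41e-19). The de novo methyltransferase Dnmt3b rose as well, from 124, 125 and 133 to 263, 279.9 and 284, by 1.11 on the log2 scale. Zfp819, a zinc finger protein of the KRAB type, fell by 0.93. For these genes the WT and Dnmt1-/- libraries did not overlap.

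Smaller changes, called by limma, were those of Morc2a (0.68), a partner of the HUSH complex, of the histone gene H3f3b (0.64), which has processed copies that could share its reads, of Atrx (0.57), which with Daxx deposits histone H3.3, and of the histone methyltransferase Ehmt1 (0.56). Smaller falls were called for H3f3a (−0.49), Cbx5 (−0.49), Atf7ip (−0.30) and Fam208a (−0.17), which were named after their values were seen. The same libraries differed in fibroblast markers: 6 of 6 were lower in Dnmt1-/-, with a summed signal of between 248 and 276 there and between 1048 and 1510.1 in WT. ES cell markers summed to between 3830 and 4151 and between 4176 and 4263. The part of the fibroblast difference in the values of the silencing factors was not tested. Y-linked genes differed as well: 4 of 4 were lower in the Dnmt1-/- replicates, summing to between 66.9 and 76.1 there and between 182 and 209 in WT. Primitive endoderm and trophoblast markers were called higher for 3 of 4 and 3 of 3 genes tested, and 6 of 8 2-cell-like genes were called lower.

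Genes that descend from retroviral coding regions formed a shorter list: of 8 listed 5 were tested, and 3 were higher. Peg10, an imprinted gene derived from a retrotransposon gag and pol, rose from 111, 116 and 126 in WT to 633, 725 and 699.6 in Dnmt1-/- libraries, a log2 fold change of 2.54 (SE 0.06, limma adjusted p = 1.75e-21).

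The untreated pair of single libraries, from which the repeat values come, followed the replicates in some of these genes only. Of the 31 silencing factors called in the replicates, 16 had the same sign in the single pair, among them Atrx, Morc2a and H3f3b, and 15 the opposite sign. Peg10 had a log2 ratio of −1.80 there for Dnmt1-/- over WT, Zfp819 of 1.55 and Dnmt3l of −0.31, each opposite in sign to the replicates, and the summed Y-linked genes also differed in direction. Dnmt1 fell in both, by 2.89 on the log2 scale in the single pair. The replicate libraries hold no repeats and give no check of the repeat ratios.

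Over the 40 silencing factors the single libraries had a median log2 ratio of −0.05 for dCas9-OGA over dCas9-OGA D242A, with 3 factors 2-fold lower with dCas9-OGA and 0 higher. Of the 13936 genes with at least 100 counts over the single libraries, among which 36 of the 40 factors were, 8.41% were 2-fold lower and 4.82% higher. The de novo methyltransferase Dnmt3a stood at 62.4 cpm in dCas9-OGA, 252 cpm in dCas9-OGA D242A, 245 cpm in WT and 333 cpm in Dnmt1-/-, a log2 ratio of −2.01 between the fusions. That of Dnmt3b was −1.19 and that of Zfp819 −1.37.

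For Dnmt1-/- over WT the median was 0.15, and 9 of the 40 factors were 2-fold apart, 8 higher and Dnmt1 lower, where 10.5% of the same genes were 2-fold higher and 7.34% lower. Rif1, a chromatin and replication timing factor, had 288 cpm in dCas9-OGA, 325 cpm in dCas9-OGA D242A, 33.2 cpm in WT and 359 cpm in Dnmt1-/-, a log2 ratio of 3.42. Atrx had 194, 115, 27.8 and 158 cpm in the same order, a log2 ratio of 2.48. WT was the low library for both. The other 6 were Morc3 (1.82), Mphosph8 (1.74), Zfp819 (1.55), Smarcad1 (1.30), Hells (1.19) and Trim33 (1.02). WT was also the lowest of the 4 libraries for these, except for Zfp819, which was lowest in dCas9-OGA. In the replicates Rif1 and Smarcad1 were not called, with log2 fold changes of −0.026 and −0.033 (limma adjusted p = 0.73 and 0.60). Atrx, Hells, Trim33, Mphosph8 and Morc3 were called higher there, by 0.57, 0.44, 0.37, 0.26 and 0.24, and Zfp819 lower. In dCas9-OGA and dCas9-OGA D242A against WT, Trim28 (log2 ratios −1.17 and −1.13) and Dnmt3l (−1.98 and −1.64) were 2-fold lower. In the same 2 comparisons Rif1 (3.10 and 3.27), Atrx (2.78 and 2.03), Mphosph8 (1.76 and 1.58) and Morc3 (1.60 and 1.69) were 2-fold higher. These factors, other than Atrx, Dnmt1, Dnmt3b, Dnmt3l and Zfp819, were named after their values were seen. The part of these factors in the repeat ratios was not tested.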

How the data were processed

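For repeats, the authors mapped polyA RNA reads to mm10 with Bowtie2 2.2.2, by their methods removed reads on rRNA and mRNA, and assigned the rest to RepeatMasker subfamilies with featureCounts 1.5.0. The deposited table still has an rRNA row with 32.2% to 48.2% of its counts, which does not match that step; the row was left out of all totals. Genes (Ensembl) were counted with featureCounts after TopHat2 2.0.11 or HISAT2 2.1.0, which the submitters' processing notes name for the fusion and the replicate libraries, respectively. For 4 single libraries they deposited whole counts per subfamily and per gene. Bowtie2 reports 1 position per read by default, so subfamilies with shared sequence can exchange counts. For the 6 WT and Dnmt1-/- replicate libraries the authors deposited a normalized signal per gene, of which 100% of values were whole multiples of 1 read. The tolerance was 0.01 reads. The headers of these files do not match their columns, so the only value column was taken by its position, and its unit comes from the values. ChIP libraries were not analysed here.

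Repeat counts were divided by gene totals with TMM factors (edgeR 4.0.16) and compared without a test as log2(cpm + 0.5), calling 2-fold. Intervals of folds are exact (Clopper-Pearson). The table gives no lengths, so levels of different members were not compared. Genes were tested with limma 3.58.1 (trend) on log2(signal + 0.5), Benjamini-Hochberg adjusted, after filterByExpr. On simulated data for 17297 genes it recovered 187 of 200 genes changed 2-fold, with 18 false calls. Far more genes were called in the data, some with changes under 2-fold, so the simulation does not give the error rate there. DESeq2 1.42.0 and edgeR on recovered reads were alternatives. LTR rows were matched to internal rows by the stem of the name, and a few families by a written list.

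Members, gene lists and the rule for named members were chosen with earlier results of these data known. Named were every member 2-fold apart between the fusions, the 10 with the most counts, up to 6 rises and 6 falls of at least 2-fold in each other comparison, largest first, a written list of known families, the 3 members on each side of the minimum and the 3 smallest ratios with at least 1000 counts; MTEa-int and MurERV4-int were added after their values were seen. Computations ran in R 4.3.3 and, with SciPy 1.17.1, NumPy 2.4.6, pandas 2.3.3 and matplotlib 3.10.9, in Python 3.11.15.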

Additional observations from a re-analysis of the deposited data

How the results depend on the processing

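All 35 called values of named members kept their sign under the 6 other scalings and pseudocounts tried, but many fell below 2-fold, and medians and counts moved as follows; the cause was not tested. Between the fusions the median of the members was 0.43 with DESeq2 size factors, −0.17 on transposon counts, 0.11 on DNA transposon counts, 0.071 relative to the median subfamily, 0.23 with a pseudocount of 5 cpm and 0.24 without a count minimum. The 8 higher members became 3 on transposon counts, 4 on DNA transposon counts, 4 relative to the median subfamily, 1 with the larger pseudocount (which left 0 lower) and 5 with a minimum of 500 counts. For dCas9-OGA over WT the median was 0.60, −0.12, −0.095, −0.071, 0.34 and 0.35 under the 6 settings in the order of the first comparison. The 17 higher members became 3, 3, 3 and 4 on transposon counts, on DNA transposon counts, relative to the median and with the larger pseudocount, and 10 with the minimum of 500, and the 1 lower became 0 with DESeq2 size factors, 5, 4, 4 and 0 under those 4 settings and 2 without a minimum. For dCas9-OGA D242A over WT the median was 0.019 on transposon counts, −0.24 on DNA transposon counts, −0.15 relative to the median, 0.097 with the larger pseudocount, which left 0 members higher, and 0.11 without a minimum. Relative to the median 6 members (8.33%) were lower, against 4.34% of all subfamilies. On DNA transposon counts 7 members were lower, and the share of all subfamilies was not computed. For Dnmt1-/- over WT the median was 0.42 without TMM factors, 0.43 with DESeq2 size factors, 0.23 on transposon counts, −0.015 on DNA transposon counts, 0.075 relative to the median, 0.25 with the larger pseudocount and 0.21 without a minimum. Its 8 higher members became 2, 2, 1 and 3 on DNA transposon counts, relative to the median, with the larger pseudocount and with the minimum of 500, and 1, 2 and 2 were lower on transposon counts, on DNA transposon counts and relative to the median.

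In the replicate libraries a replicate block gave 6344 genes higher and 6212 lower and 25 and 7 silencing factors, but the numbers did not pair the samples (correlations of 0.07, −0.02 and 0.07). Leaving out 1 library at a time gave between 5882 and 6185 genes higher, between 5804 and 6104 lower, and between 24 and 26 silencing factors higher and 5 and 8 lower. On recovered reads edgeR called 6026 and 6226 genes and DESeq2 5665 and 5739. With 1 library per condition the repeat ratios carry no replicate error, and counts under about 100 in a library leave wide intervals.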
